A study of Mus musculus with 82 samples.

Results

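Tumours of one mouse model are not copies of each other, and the distance between them is a property of the model that a comparison of average levels leaves out. Here the spread of each gene among the 8 tumour libraries of MMTV-NEU was set against its spread among the 12 tumour libraries of 2208, out of 82 bulk mRNA libraries of 13 mouse mammary tumour models. MMTV-NEU tumours are on the FVB strain and carry a Neu (Erbb2) transgene under the promoter of the mouse mammary tumour virus, which is active mainly in mammary epithelium. 2208 tumours are on BALB/c, and the line is known in the field as a transplantable mammary tumour, although the labels give neither its genotype nor its passage. All 20 tumours were untreated and had been frozen before RNA was taken. Strain and model cannot be told apart in this design, and the labels do not say whether libraries of a model came from separate animals, so the p-values below measure the spread between these libraries, part of which may be technical.

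Levels are in CPM, counts scaled to a common library total, and genes were taken where the mean was at least 5 CPM in both models, which 10694 of the 47480 genes in the table reached. A further 846 genes reached that level in MMTV-NEU only and 694 in 2208 only, and their spread was not compared. Just inside the limit stood Ttc30a1, at a mean of 5.001 CPM in MMTV-NEU and 6.896 in 2208, and just outside it Spsb4, at 4.997 and 49.5 CPM. Spread is given as the standard deviation (SD) of log2 CPM among the libraries of one model, and the models are compared by the log2 SD ratio, which is positive where MMTV-NEU varied more and has a jackknife standard error (SE) over libraries. A gene was called when limma found its absolute deviations from the model mean to differ between the models at an adjusted p under 0.05.

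A solid mammary tumour is a mixture: malignant epithelium, fibroblasts that lay down collagen, vessels, macrophages, and remnants of the fat pad and of the muscle beneath the gland. In bulk RNA fewer cells of a type and less RNA per cell cannot be told apart. Genes that respond within minutes to growth factors or to handling, the immediate early genes, and genes of hypoxia and inflammation are known to differ between pieces of one tumour, while the housekeeping machinery of ribosome, splicing and respiration is usually steady. Epithelial markers were high in every library: Epcam, the epithelial adhesion molecule, ranged from 1181 to 1908 CPM in MMTV-NEU and from 523.2 to 892.2 CPM in 2208, and Krt8, a luminal keratin, from 328.2 to 970 and from 658.7 to 1495 CPM. The summed level of 20 T cell genes stayed between 7.07 and 22.2 CPM over all 20 libraries, and none of these genes reached the level needed for a test, nor did any of 15 natural killer cell or 10 mast cell genes.

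Library totals ran from 17235468 to 89732688 counts in MMTV-NEU and from 14444895 to 132712453 in 2208, and counting error made up a median of 1.68% and 1.58% of a gene's variance. The library numbers in the labels fall into runs of neighbouring numbers, 3 in MMTV-NEU (replicates 1 to 3, 4 to 5 and 6 to 8) and 5 in 2208 (1, 2 to 5, 6 to 8, 9 to 11 and 12). What the numbers record is not stated, so the runs are named only as such. Of the 18 libraries that shared a run with another, 14 had their highest correlation across genes within that run. The pair with the highest correlation, 2208 replicates 10 and 11 (Pearson r = 0.9935 across genes), differed by 14.5 times the variance that counting allows. The smallest such value was 8.7, for 2208 replicates 6 and 8. These values cannot tell whether libraries share a tumour, since repeat preparations may also differ by more than counting error. All libraries were kept as separate. Runs held a median of 51.4% of a gene's sum of squares in MMTV-NEU, where 28.6% would fall between runs with equal means, and 72.4% in 2208, where the corresponding share is 36.4%.

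Some libraries stood apart. MMTV-NEU replicates 4 and 5 had the lowest summed levels of fat and fibroblast transcripts of their model. 2208 replicates 10 to 12 had higher levels of short transcripts and lower levels of long ones than the 2208 mean: across 10401 genes with a length in the annotation, Spearman's rho between a gene's deviation and its median transcript length was -0.361, -0.33 and -0.313 in these 3 libraries. It was between 0.25 and 0.321 in 2208 replicates 1 to 5, and between -0.152 and 0.105 in all 8 MMTV-NEU libraries. These are descriptions across genes, which are not independent, and the part of transcript length in the results was not tested beyond one further fit, which removed the length trend in each library and called 517 genes with larger spread in MMTV-NEU and 26 with larger spread in 2208.

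**Figure D1:**
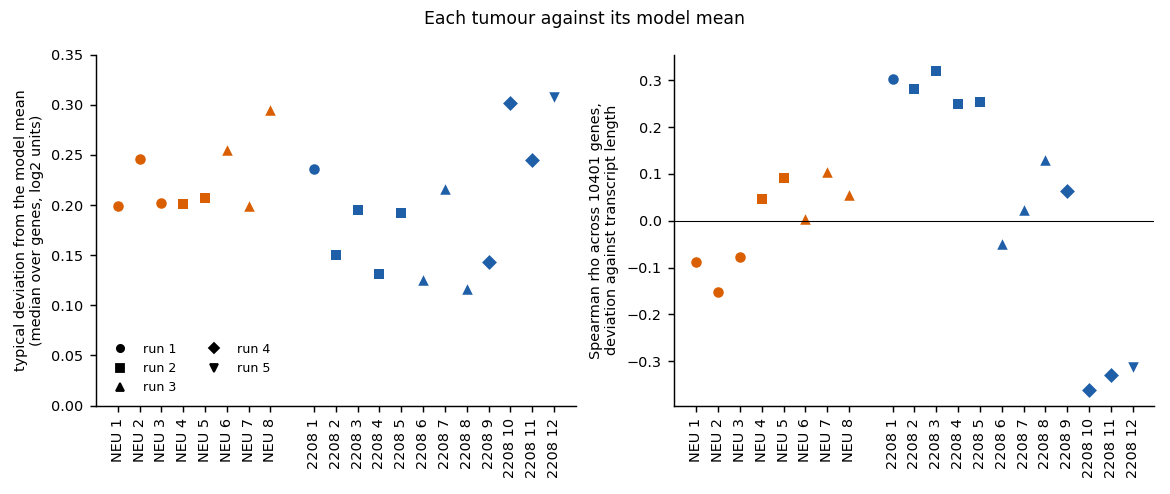
Left, the typical deviation of each tumour library from its model mean (median over 10694 genes of the scaled absolute deviation, log2 units). Right, Spearman's rho across 10401 genes between that library's deviation and transcript length. Orange points are MMTV-NEU and blue points 2208, and the symbol gives the run of library numbers. 2208 replicates 10 and 12 have the largest typical deviations (0.302 and 0.307), and replicates 10 to 12 the lowest rho.

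No difference in the spread of the typical gene was detected. The median SD of log2 CPM was 0.3 in MMTV-NEU and 0.273 in 2208, and the median log2 SD ratio was 0.20 ± 0.19 (jackknife SE), with 60.8% of genes above 0. It ranged from 0.08 without MMTV-NEU replicate 8 to 0.31 without 2208 replicate 12. Per library, the typical deviation averaged 0.226 ± 0.0359 (SD, n = 8) in MMTV-NEU and 0.197 ± 0.0664 (SD, n = 12) in 2208. The values overlapped, from 0.199 to 0.295 and from 0.117 to 0.307, and the difference of 0.0289 did not pass an exact two-sided permutation test (p = 0.274). Replicates 10 to 12 held the 3 largest typical deviations of 2208, and with replicates 9 to 12 set aside the median log2 SD ratio was 0.60 and the difference in typical deviation per library 0.0755, values that are given as a description because those libraries were set aside for standing apart. Among the 13 models of the series, over 8875 genes at 5 CPM or more in every model, the median SD was 0.3 in the model 9263, 0.282 in MMTV-NEU, 0.275 in MMTV-PYMT and 0.257 in 2208, and lower in the other 9, with 2 to 12 libraries a model.

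The models differed in the tail of variable genes. In limma's test of the deviations, 464 genes had a larger spread in MMTV-NEU (4.34% of the 10694 tested) and 22 a larger spread in 2208 (0.206%), 486 in all (4.54%). The median log2 SD ratio of the 464 was 1.71. Of 200 genes simulated with a 4 times larger SD in MMTV-NEU the test recovered 76%, against 7.5% at 2 times, and for 2208 34% and 3.5%. The simulated deviations were normal and independent, without the runs of the data, so recovery in the data may differ. An SD above 1 was reached by 377 genes in MMTV-NEU and 135 in 2208, of which 88 were the same genes. The calls depend on how deviation is measured. With deviations from the model median in place of the mean, limma called 0 genes, with 1370 at an unadjusted p under 0.05, and with squared deviations it again called 0, with 1760 at an unadjusted p under 0.05. An F test of the variances called 433 and 40 genes. In the simulation the fit on medians recovered 46.5% of the 4-fold MMTV-NEU genes, and 0.5% of the 2-fold ones. The fit on squared deviations recovered 0% of the 4-fold genes of either model, so its 0 calls cannot tell whether spreads differ.

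**Figure D2:**
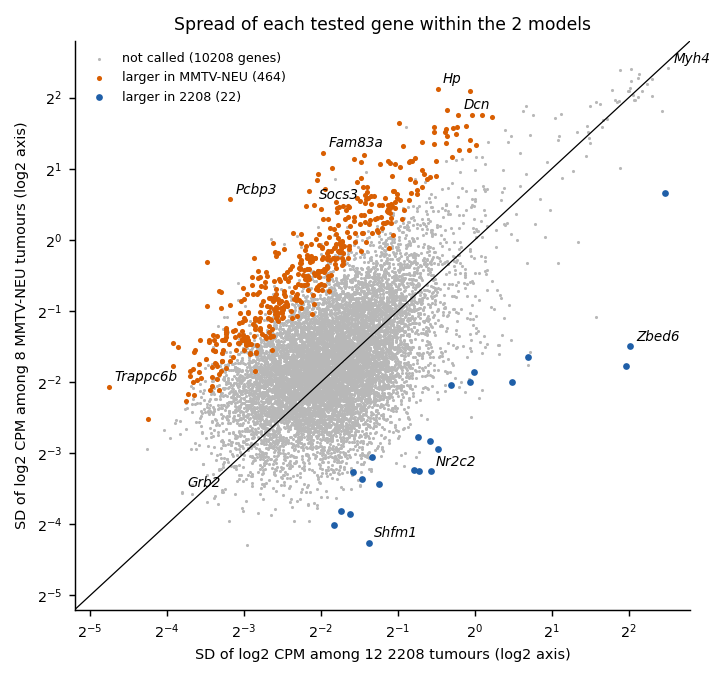
SD of log2 CPM of each of the 10694 tested genes among the 12 2208 libraries (horizontal) and the 8 MMTV-NEU libraries (vertical), on log2 axes with the line of equality. Orange marks the 464 genes called with larger spread in MMTV-NEU and blue the 22 called with larger spread in 2208. Muscle genes such as Myh4 lie at the top right, with an SD above 4 in both models.

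Which MMTV-NEU tumour was farthest from the mean differed from gene to gene. Replicate 8 was the farthest for 179 of the 464 genes (38.6%, against 27.8% of all tested genes). It was the highest library for 116 of the 464 (25%, against 23.6%) and the lowest for 104 (22.4%, against 16.9%). Replicates 4 and 5 held the 2 lowest MMTV-NEU values for 127 of the 464 (27.4%), against 9.23% of all tested genes, and replicate 6 was the highest for 111 (23.9%, against 8.07%). Of the 22 genes with larger spread in 2208, replicate 10 was the farthest for 14, against 22.1% of all tested genes.

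Pcbp3 (chromosome 10, 76761857 to 76961887, mm10), which encodes a poly(C)-binding RNA protein, had the largest ratio among the named genes. Its level in MMTV-NEU was 11.7, 12.7 and 12.6 CPM in replicates 1 to 3, 21.6 and 17.1 in replicates 4 and 5, and 3.87, 3.16 and 1.06 in replicates 6 to 8. In 2208 all 12 libraries lay between 5.98 and 7.52 CPM, with a median of 6.48, in the gap between the MMTV-NEU runs. Counting error made up 54.7% of the variance of Pcbp3 in 2208 and 0.707% in MMTV-NEU. The log2 SD ratio was 3.75 ± 0.53 (adjusted p = 4.85e-05), and the gene kept its call without 2208 replicates 9 to 12 (adjusted p = 0.0251) but not within runs (2.68, adjusted p = 0.109).

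Fam83a (chromosome 15, 57985419 to 58011009), whose product is known to act in EGFR and RAS signalling, was at 0.665 to 1.5 CPM in MMTV-NEU replicates 1 to 5 and at 21.3, 5.67 and 52.7 CPM in replicates 6 to 8. The 12 values of 2208 ran from 20.5 to 39.7 CPM with a median of 29.1, so that 1 MMTV-NEU tumour lay in that range, 1 above it and 6 below. The log2 SD ratio was 3.20 ± 0.53 (adjusted p = 0.000234). Arnt2, a bHLH-PAS transcription factor, was at 0.902 to 5.72 CPM in MMTV-NEU replicates 1 to 7 and at 58.9 CPM in replicate 8, with 2208 between 31.1 and 49.6 CPM and a median of 43.3 (2.96 ± 0.93, adjusted p = 0.0167). Fam83a and Arnt2 reached a mean of 5 CPM in MMTV-NEU only through replicate 8, and without it neither was tested. Trpv4, a calcium-permeable channel, and Palm, a membrane-bound protein of cell shape, had the same highest tumour: Trpv4 was at 47.5 CPM in replicate 8 and 1.13 to 16.3 in the other 7, and Palm at 43.9 and 1.98 to 18.8 CPM. For both genes every MMTV-NEU value was below every 2208 value, which ran from 66.1 to 112 CPM for Trpv4 and from 50.9 to 88.1 for Palm. Nkd2, an inhibitor of Wnt signalling at Dishevelled, was likewise highest in replicate 8 (29.2 CPM), and lowest in replicate 2 (1.88 CPM), far below the 912 to 1510 CPM of 2208.

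Slc6a2 and Syn2, both known from neurons, were instead lowest in replicate 8. Slc6a2, the noradrenaline transporter, was at 2.52 CPM in MMTV-NEU replicate 8 and at up to 194 CPM in replicate 4, against 147 to 234 CPM in 2208, and Syn2, a synapsin, was at 0.238 CPM in replicate 8 and at up to 31.6 in replicate 7, against 6.46 to 15.5 CPM in 2208. Rabif, a chaperone of Rab GTPases, was spread widely in MMTV-NEU beside a very steady 2208: 13.1 to 56.9 CPM in MMTV-NEU and 36.7 to 46.4 in 2208 (3.17 ± 0.43, adjusted p = 0.000234). Trappc6b, of the TRAPP vesicle-tethering complex, had narrower ranges in both models, at 27.8 to 44 and 20.6 to 22.3 CPM (2.69 ± 0.46, adjusted p = 0.00114). Counting error covered 100% of the variance of Trappc6b in 2208, so its ratio rests on an SD at the counting floor. Because many of these genes also differ in level between the models, the test was repeated on the 8356 genes whose mean log2 levels lie within 1 unit: 157 genes had a larger spread in MMTV-NEU and 5 in 2208, and all 162 were among the 237 such genes called before.

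**Figure D3:**
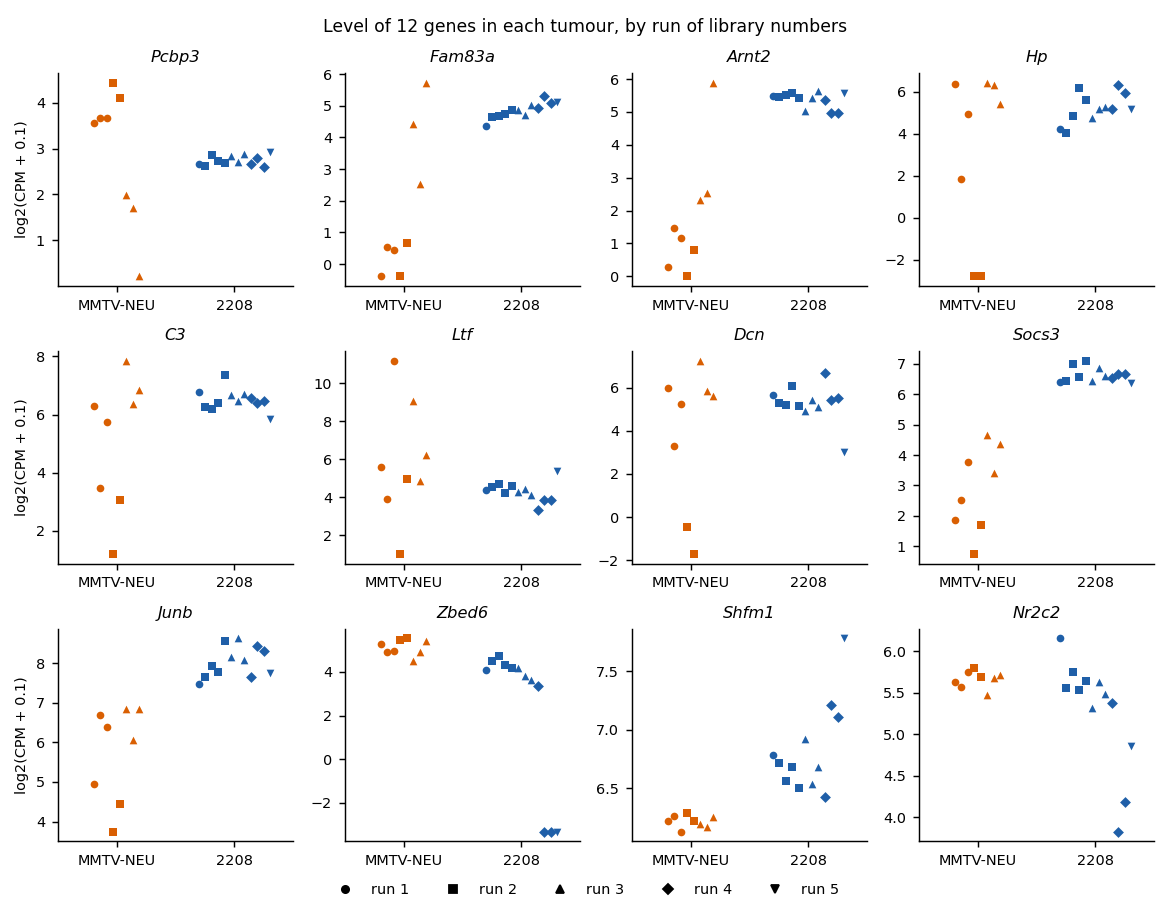
Level of 12 genes in each library, as log2(CPM + 0.1) with each gene on its own axis. MMTV-NEU is orange, 2208 blue, and the symbol gives the run of library numbers, in order of replicate from left to right. Pcbp3 falls into 3 levels by run in MMTV-NEU, Hp and Dcn are lowest in replicates 4 and 5, and Zbed6, Shfm1 and Nr2c2 are set apart in 2208 replicates 10 to 12.

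Acute phase and innate defence genes also held called genes. Of 20 listed, 10 were tested and 2 had a larger spread in MMTV-NEU (4.34% over all genes), with a median log2 SD ratio of 0.60 ± 0.42 beside 0.20 over all genes. Hp, haptoglobin, which binds free haemoglobin, was at 82.7, 3.44 and 30.6 CPM in MMTV-NEU replicates 1 to 3, 0.0451 and 0.0454 in replicates 4 and 5, and 85.1, 80.7 and 43 in replicates 6 to 8. In 2208 it ran from 16 to 79.8 CPM with a median of 36.3, and the MMTV-NEU values lay on both sides of that range (2.61 ± 0.44, adjusted p = 0.000759). C3, the central complement component, was at 2.21 and 8.24 CPM in replicates 4 and 5 and at 231 CPM in replicate 6, with a median of 66.1, against 57.9 to 163 CPM in 2208 with a median of 88.5 (2.64 ± 0.64, adjusted p = 0.000759). The other 8 tested members were not called, among them Serpina3n, with a ratio of -1.41.

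Ltf, lactoferrin, an iron-binding protein of milk and of neutrophil granules, was set apart by 2 MMTV-NEU tumours. Replicates 3 and 6 were at 2340 and 537 CPM, the other 6 between 1.92 and 75, while 2208 stayed between 10.1 and 41.1 CPM, with a median of 20.2 (2.63 ± 0.63, adjusted p = 0.0103). Spp1, osteopontin, a secreted phosphoprotein, was highest in the same tumours: 4010 CPM in replicate 3, 967 in replicate 6 and 468 in replicate 8, against 7.06 to 62.6 in the other 5, and 3100 to 14700 CPM in 2208, with a median of 6550 (2.12 ± 0.44, adjusted p = 0.0103). Socs3, the feedback inhibitor of cytokine signalling through STAT3, was chosen after its values were seen. It was at 1.578 to 25.29 CPM in MMTV-NEU, highest in replicates 6 and 8, with a median of 8.03, and at 83.4 to 137.3 in 2208 with a median of 95.3 (2.59 ± 0.45, adjusted p = 0.000759). The groups did not overlap in level, and the spread of the lower group was the larger.

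Stromal genes gave the largest block of calls. Of 20 fibroblast and collagen matrix genes, 19 were tested, 9 had a larger spread in MMTV-NEU (4.34% over all genes) and 0 in 2208 (0.206%). The median log2 SD ratio was 1.20 ± 0.40. The 9 were Dcn, Postn, Col14a1, Lum, Col3a1, Mmp2, Col1a1, Col5a2 and Col5a1, structural collagens, small proteoglycans and a matrix protease. Dcn, decorin, which binds collagen fibrils, was at 64.2, 9.82 and 38.2 CPM in MMTV-NEU replicates 1 to 3, 0.631 and 0.204 in replicates 4 and 5, and 153, 57.2 and 49 in replicates 6 to 8. The 2208 libraries had a median of 41.3 CPM and ran from 29.9 to 102 with the exception of replicate 12, at 8.07 (1.98 ± 0.88, adjusted p = 0.00343). Lum, lumican, was at 0.226 and 0.0227 CPM in replicates 4 and 5 and at 5.16 to 32.5 in the other 6, against 5.38 to 113 in 2208. Col1a1, the main fibrillar collagen chain, was at 54 and 49.5 CPM in replicates 4 and 5 and at most 675 CPM in MMTV-NEU, below the lowest 2208 value of 1090 CPM (1.41 ± 0.48, adjusted p = 0.0259).

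The calls of this block depended on replicates 4 and 5 of MMTV-NEU, while most of the larger median ratio remained without them. The summed level of the 20 fibroblast genes was 788 and 636 CPM there and 849 to 4930 in the other 6, against 6230 to 19900 CPM in 2208. Without these 2 libraries 0 of the 19 genes were called, the median log2 SD ratio was 0.90, and that of Lum was -0.28. Within runs, too, 0 were called and the median was 0.69. Without 2208 replicates 9 to 12 it was 1.96, with 11 of 18 called. Replicates 4 and 5 were also the lowest for fat, but not for vessels. Their summed adipocyte genes were 268 and 237 CPM against 370 to 1970 in the other MMTV-NEU libraries, and Cfd, adipsin, and Adipoq, adiponectin, both defining fat genes, had 0 counts in both. Their summed muscle genes, 12.2 and 15.8 CPM, were near those of replicates 7 and 8 at 13.9 and 18.6. Their summed endothelial genes, 382 and 241 CPM, and pericyte genes, 424 and 386 CPM, lay within the ranges of the other 6 (178 to 508 and 272 to 528 CPM), with replicate 2 the lowest in both. The part of tissue content in the called genes was not tested.

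**Figure D4:**
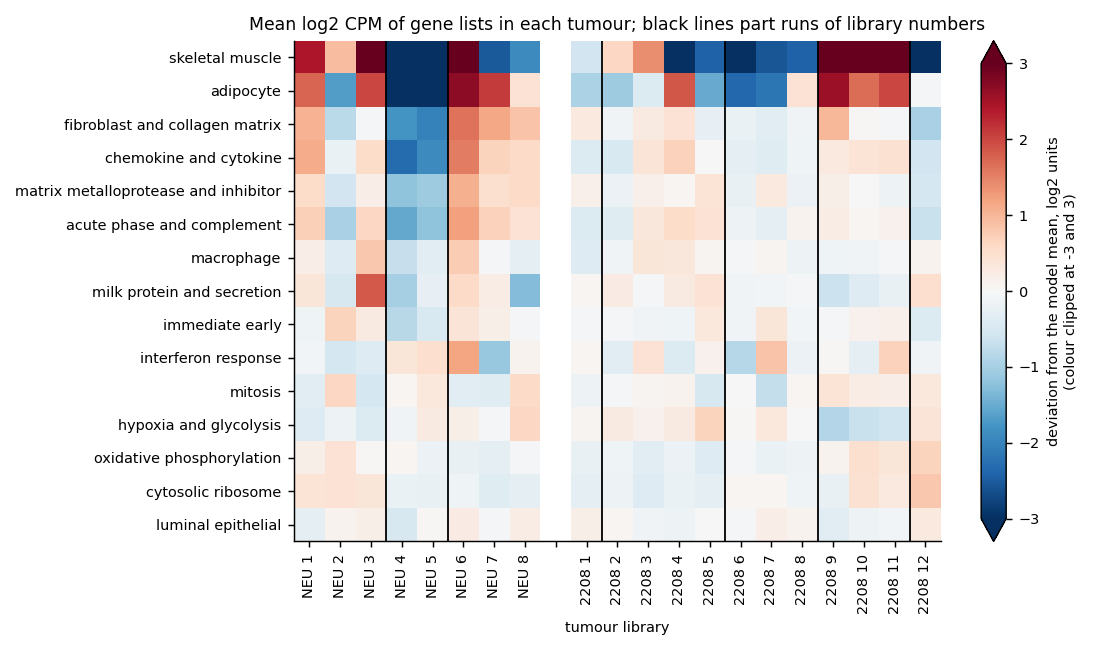
Mean log2 CPM of the tested members of 15 gene lists in each library, as the deviation from the mean of its model (red above, blue below, colour clipped at -3 and 3 log2 units). Black lines part the runs of library numbers. MMTV-NEU replicates 4 and 5 are low for muscle, fat, fibroblast, chemokine, protease and acute phase genes, while 2208 replicates 9 to 11 are high for muscle and low for hypoxia genes.

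Secreted signals and matrix enzymes followed a similar pattern. Of 8 tested chemokine and cytokine genes 3 had a larger spread in MMTV-NEU (4.34% over all genes, median ratio 1.03 ± 0.33). Cxcl14, a chemokine of epithelium and fibroblasts, was at 1.67 and 2 CPM in replicates 4 and 5 and at 13 to 61.1 in the other 6, against 46.2 to 181 in 2208 (1.95 ± 0.48, adjusted p = 0.00784). Il33, an alarmin of stromal nuclei, was at 0.158 and 0.182 CPM in the same 2 libraries and 4.7 to 16.6 in the others, and Ccl9 was the third. Without replicates 4 and 5 0 of the 8 were called, and the ratio of Il33 was -0.36. Among 14 matrix metalloprotease and inhibitor genes 4 were called, beside 4.34% over all genes (Timp2, Mmp2, Adamts5 and Mmp19, median ratio 0.78 ± 0.34), and 1 of them without those libraries. Adipocyte genes had an SD among the largest of any list in both models, a median of 2.24 in MMTV-NEU and 0.97 in 2208. Of 7 tested 2 were called, beside 4.34% over all genes: Lipe, hormone-sensitive lipase, and Fabp4, a fatty acid binding protein. Plin4, Cfd and Car3, also tested, had 2208 medians of 0.513, 1.51 and 2.54 CPM. They passed the minimum mean in 2208 only through their high libraries, so their large SD there was partly set by the filter.

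In the summed level of macrophage genes replicates 3 and 6 of MMTV-NEU were the high tumours (2800 and 2290 CPM). Replicate 6 was also the highest for the summed fibroblast, fat and chemokine genes. Of 20 listed, 17 were tested and 16 had a larger SD in MMTV-NEU, against 60.8% of all tested genes. Of the 17, 3 passed, Cd14, Tyrobp and C1qc, beside 4.34% over all genes, and the median ratio was 0.89 ± 0.42. Cd14, the co-receptor for lipopolysaccharide, was at 236 CPM in replicate 3 and 106 in replicate 6, at 10.4 to 56.3 in the other 6, and at 308 to 727 CPM in all 2208 libraries (2.10 ± 0.69, adjusted p = 0.0162). Lyz2, lysozyme, had the same 2 tumours on top (410 and 298 CPM, the others 87.4 to 217), with a ratio of 0.88 that did not pass (adjusted p = 0.185). Apoe, a lipid carrier abundant in macrophages, was at 363 to 1430 CPM against 778 to 1660 (1.13 ± 0.53, adjusted p = 0.114). Mrc1, also on the list, was instead highest in MMTV-NEU replicate 1 (43.5 CPM), with 37.7 CPM in replicate 6 and 18.8 in replicate 3. Without replicates 4 and 5, 3 were still called. Without replicate 3 or without replicate 6 alone, 0 were called, with median ratios of 0.77 and 0.64. The summed level of the 20 genes was 863 to 2800 CPM in MMTV-NEU and 2550 to 4020 in 2208.

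Immediate early genes, the first to be transcribed after a growth or stress signal, were nearly all on one side. Of 22 listed, 18 were tested, and 17 had the larger SD in MMTV-NEU, against 60.8% of all tested genes. Of the 18, 4 passed (Jun, Junb, Ier2 and Btg2), beside 4.34% over all genes, and 0 in the other direction, beside 0.206%. The median ratio was 0.84 ± 0.33. Junb, a subunit of AP-1, was at 13.3 and 21.6 CPM in replicates 4 and 5, at 30.8 in replicate 1 and at 67.2 to 116 in the other 5, against 177 to 396 in 2208 with a median of 257 (1.63 ± 0.39, adjusted p = 0.0232). Jun, its partner family member, was at 49.95 to 207.9 CPM, highest in replicate 2, against 98.32 to 146.9 in 2208 (1.88 ± 0.48, adjusted p = 0.0169). Ier2, a growth-inducible nuclear protein, was at 23.34 and 24.08 CPM in replicates 5 and 4 and at 50.77 to 115.6 in the others. Ctgf, a matricellular YAP target on the list, was at 18.9 and 22.3 CPM in those 2 libraries and 52.8 to 126 in the others, with a ratio of 1.14 that did not pass (adjusted p = 0.0709). Without replicates 4 and 5 2 of the 18 were called and the median ratio was 0.63, and without replicates 9 to 12 of 2208 3 were called and it was 1.32.

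Milk and secretion genes had the highest median ratio of the lists with 5 or more genes tested, 1.23 ± 0.71, on 8 genes. Of 18 listed, 9 more reached the level for a test in MMTV-NEU only. Ltf, Mfge8, a milk fat globule protein, and Spp1 were called, 3 of the 8 beside 4.34% over all genes. The median ratio ranged from 0.52 to 1.38 with each library left out in turn. Csn3, kappa casein, went the other way. It was at 17200 to 31200 CPM in every MMTV-NEU tumour and at 36.3 to 308 CPM in 2208, lowest in replicates 9 to 11 and highest in replicates 4, 5 and 12 (-1.68 ± 0.33), and it did not pass (adjusted p = 0.0737).

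For the driver gene the call depended on the libraries and the scaling. Erbb2 (chromosome 11, 98412470 to 98437716), the receptor gene whose reads may include those of the Neu transgene, was at 17710, 8603 and 12040 CPM in MMTV-NEU replicates 1 to 3, 11200 and 9171 in replicates 4 and 5, and 17070, 9022 and 8251 in replicates 6 to 8. Replicates 1 and 6 were the highest, each in another run. In 2208 it was at 110 to 140 CPM except in replicate 12, at 184, with a median of 123. The SD was 0.437 against 0.19, a log2 ratio of 1.20 ± 0.91 that did not pass in limma's test (adjusted p = 0.0644). Erbb2 was called with scaling by library totals (1.75, adjusted p = 0.0158) and on the authors' normalized values (1.31, adjusted p = 0.0317), within runs (2.10, adjusted p = 0.0223), without MMTV-NEU replicates 4 and 5 (1.36, adjusted p = 0.0288) and without 2208 replicates 9 to 12 (1.97, adjusted p = 0.0375) or 12 alone (2.08, adjusted p = 0.00928). With each library left out in turn its adjusted p ran from 0.00928 to 0.19. Over the 7 tested ERBB receptors and ligands the median was 0.96 ± 0.39 with 0 called, and with these 7 genes kept fixed it ranged from 0.60 without MMTV-NEU replicate 8 to 1.11 without 2208 replicate 5. Within runs 3 of the 7 were called, Erbb2, Errfi1 and Tgfa, with a median of 1.33. Met, the receptor of hepatocyte growth factor, was high in 2208 (2960 to 5890 CPM) and low in MMTV-NEU (62.3 to 121 CPM) with a log2 SD ratio of 0.08 ± 0.69.

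Downstream of the prolactin and growth hormone receptors, 2 of 8 tested genes had a larger spread in MMTV-NEU, Socs3 and Stat5a (4.34% over all genes, median ratio 0.63 ± 0.37). Stat5a, the transcription factor of milk protein genes, chosen after its values were seen, ran from 77.77 CPM in replicate 8 to 294 CPM in replicate 7 of MMTV-NEU and from 38.61 to 56.94 CPM in 2208 (2.06 ± 0.63, adjusted p = 0.00638). Gapdh, a glycolytic enzyme often used as a reference gene, was also singled out after its values were seen. It was at 418.8 to 1715 CPM in MMTV-NEU, lowest in replicate 1 and highest in replicate 8, and at 1020 to 1582 in 2208 (1.99 ± 0.66, adjusted p = 0.0119). Psat1, of serine synthesis, chosen in the same way, was at 42.76 to 146 and at 98.88 to 125.7 CPM (2.60 ± 0.57, adjusted p = 0.00486).

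The 22 genes with larger spread in 2208, 0.206% of the 10694 tested, held 0 members of the 49 lists. This is near the share over all genes and says nothing about their function. Of the 21 with an annotation, 4 were pseudogenes (19%, against 2.09% of all tested genes). Zbed6 (chromosome 1, 133655879 to 133660885), a transcriptional repressor, lies inside the gene Zc3h11a on the same strand. It had 0 CPM in 2208 replicates 10, 11 and 12 and 10.2 to 26 CPM in the other 9, while MMTV-NEU was at 22.8 to 46 CPM with a median of 35 (-3.52 ± 0.48, adjusted p = 0.00317). Zc3h11a was at 210.1, 208.5 and 117.7 CPM in these 3 libraries and at 163.7 to 192.6 in the other 9. Reads of genes that overlap on one strand can be split differently between them, and how they were split is not given in the sources used here.

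The same 3 libraries held the extreme values of Nr2c2, Zfp871, Sprtn, Shfm1 and Otub1 as well, while other named genes with larger spread in 2208 had other libraries at the extreme. Nr2c2, an orphan nuclear receptor, was at 14.1, 18.1 and 29.1 CPM in replicates 10 to 12 and at 39.9 to 71.2 in the other 9, against 44.2 to 55.7 in MMTV-NEU with a median of 51.4 (-2.68 ± 0.66, adjusted p = 0.0298). Zfp871, a zinc finger protein, was at 1.21, 2.74 and 7.67 CPM against 13.2 to 28.1, and Sprtn, a protease of DNA-protein crosslinks, at 4.34, 6.13 and 8.37 against 9.56 to 16.1. Shfm1, a small proteasome subunit, was high there instead, at 148, 138 and 220 CPM against 86 to 121 in the other 9 and 69.9 to 78.1 in MMTV-NEU (-2.88 ± 0.72, adjusted p = 0.0232), as was Otub1, a deubiquitinase, at 144, 127 and 128 CPM against 77.4 to 106. Hypk, a partner of the N-terminal acetyltransferase, was highest in replicates 10 and 11 (63.6 and 56.8 CPM), and replicate 1 came next, at 45.5.

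Without replicates 9 to 12 of 2208, 8 genes had a larger spread in 2208, of which 5 were among the 22, and within runs 32 genes, of which 2 were. Leaving out replicate 10 alone or replicate 11 alone left 5, of which 4 were among the 22 in either case. Tspan8, a tetraspanin of epithelial membranes, kept its call without the 4 libraries (-2.34, adjusted p = 0.0263): it was at 0.834 to 14 CPM in 2208 replicates 1 to 11 and at 44.7 in replicate 12, against 201 to 431 CPM in MMTV-NEU. Pbxip1 had an SD of 0.281 in 2208, near the median of 0.273 over all tested genes. Its SD in MMTV-NEU was 0.0621, so its call rests on very steady MMTV-NEU values. Elk4 was steady in MMTV-NEU too, with an SD of 0.0922. Its SD of 0.423 in 2208 was above the upper quartile of 0.3735 there. Nos1ap, an adaptor of nitric oxide synthase, was at 4.08 and 5.63 CPM in replicates 10 and 11 and had a ratio of 1.30 without the 4 libraries, against -1.93 with them.

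Of the 10 genes with the largest SD in each model, 4 were the same, Myh4, Acta1, Tnnt3 and Pvalb, and most of the others also belong to skeletal muscle. In MMTV-NEU and 2208 the median was 2.96 and 0.292 CPM for Myh4, 3.29 and 0.97 for Tnnt3, and 1.58 and 0.0158 for Pvalb. These genes reached a mean of 5 CPM only through a few high libraries, so a large SD in both models was partly set by the filter. The SDs of log2 CPM of the tested genes correlated across genes (Spearman's rho = 0.456), a description in which genes are not independent. Of 20 muscle genes 19 were tested, the median SD was 4.03 in MMTV-NEU and 4 in 2208, and 0 were called (median ratio -0.02 ± 0.38). Most of the tested muscle genes also had medians under 5 CPM in both models, so the filter partly fixed this likeness too. Myh4, a fast myosin heavy chain, was at 555 CPM in MMTV-NEU replicate 6, 74.8 and 122 in replicates 1 and 3, and 0 in replicates 4 and 5. In 2208 it was at 1460, 97.2 and 364 CPM in replicates 9 to 11 and at 0 in replicate 6. Acta1, skeletal actin, and Ckm, muscle creatine kinase, were high in the same libraries. Over the list the summed level ran from 12.2 to 3530 CPM in MMTV-NEU and from 12.6 to 8470 in 2208. Car3, a carbonic anhydrase of muscle and fat, and Cfd had SDs of 5.29 and 5.26 in MMTV-NEU and 4.09 and 3.70 in 2208. Their 2208 medians were 2.54 and 1.51 CPM, so their 2208 SDs were partly set by the filter as well.

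Rsc1a1 (chromosome 4, 141683851 to 141685599), a regulator of a glucose transporter, and Hp were also among the 10 of MMTV-NEU. Neither is on the muscle or fat list, but Hp, like the fat gene Cfd, was lowest in MMTV-NEU replicates 4 and 5. Rsc1a1 lies inside Ddi2 on the same strand and had 0 CPM in MMTV-NEU replicates 7 and 8 and in 2208 replicates 10 and 11, against 10.2 to 30.9 and 12.8 to 19 CPM in the others. Ddi2 was detected at 125.1 to 470.7 CPM in all 20 libraries, and it was lowest of its model in MMTV-NEU replicate 8 (156.9 CPM) and in 2208 replicates 10 and 11 (125.1 and 136.3 CPM). How reads were split between both genes was not tested.

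At the other end stood genes and functions with small spread or with no called difference. The 5 steadiest genes were Colgalt1, Vps26b, Grb2, Fbxw2 and Mms19. Grb2, the adaptor that links receptor tyrosine kinases to RAS, was at 71.2 to 83.1 CPM in MMTV-NEU and 89.8 to 105 in 2208, with SDs of 0.0852 and 0.0716. Oxidative phosphorylation had the lowest median ratio of the lists with 5 or more genes tested, -0.23 ± 0.42 over 20 genes, with 0 called and 6 larger in MMTV-NEU (60.8% over all genes). Its level in 2208 moved with replicates 10 to 12: Ndufa4, a small respiratory chain subunit, was at 244, 227 and 325 CPM there and at 101 to 146 in the other 9, while in MMTV-NEU it was at 112 to 145 CPM in replicates 1 to 3 and 46.6 to 73.8 in replicates 4 to 8. Without 2208 replicates 9 to 12 the median ratio of the list was 0.84, with 1 of 20 called, and within runs it was 0.44, also with 1 called. Transcripts of the 20 genes have a median length of 636 bases, against 1363 over all tested genes.

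**Figure D5:**
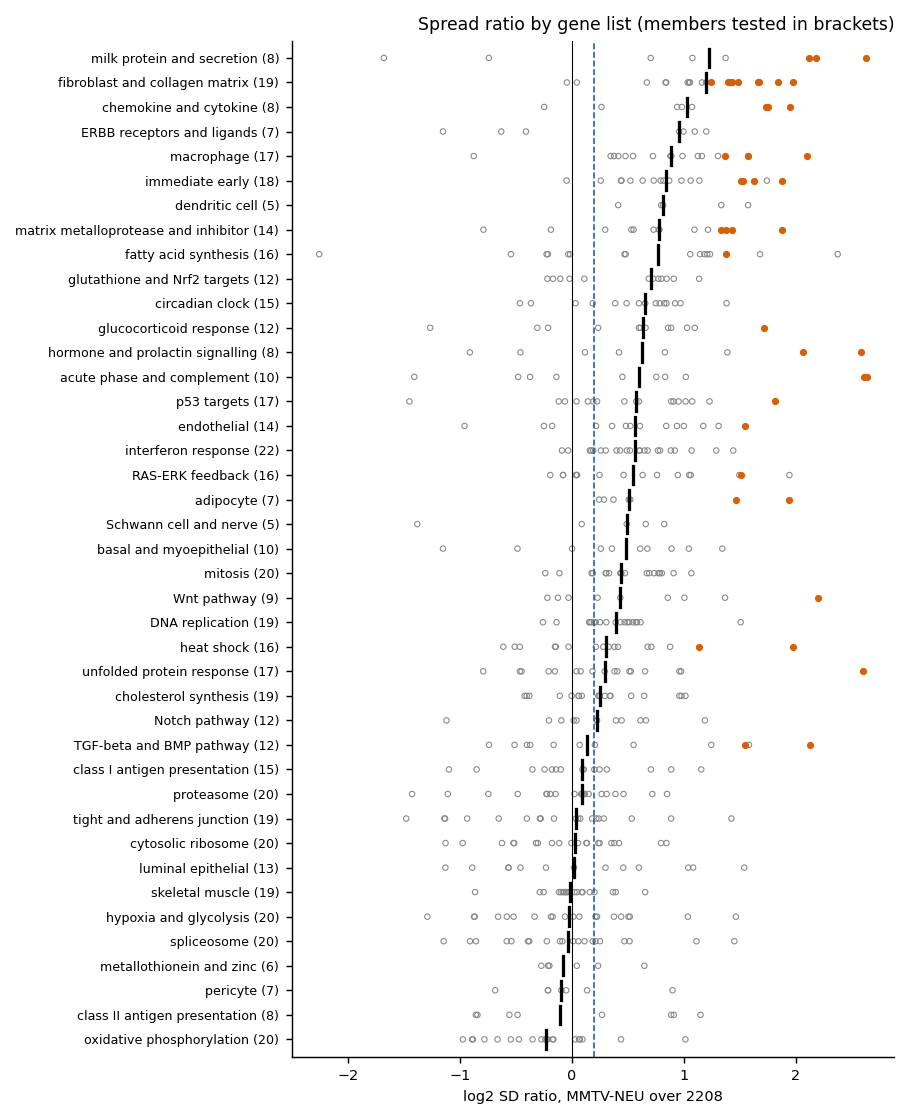
Log2 SD ratio (MMTV-NEU over 2208) of every tested member of the gene lists with 5 or more members tested. Filled orange points are called genes, open points are not called, short black bars are list medians, and the dashed blue line is the median of all tested genes, 0.20. All called members lie to the right, as do 464 of the 486 genes called in all. The milk, matrix and chemokine lists stand at the top while respiration, class II presentation and pericyte genes stand at the bottom.

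Other functions near the bottom were class II antigen presentation (median ratio -0.11 ± 0.45, 0 of 8 called), pericyte genes (-0.09 ± 0.33, 0 of 7), metallothioneins and zinc transport (-0.08 ± 0.30, 0 of 6), the spliceosome (-0.04 ± 0.30, 0 of 20) and hypoxia and glycolysis (-0.02 ± 0.36, 0 of 20). Class II genes were split: the abundant chains Cd74, H2-Ab1 and H2-Aa had ratios of 1.15, 0.91 and 0.89, none of which passed, and 4 of the other 5 had ratios below 0. Cd74 was at 72.3 to 436 CPM in MMTV-NEU and 236 to 666 in 2208. Adm, adrenomedullin, a hypoxia-responsive peptide, was variable in both models, from 3.06 to 72.2 CPM in MMTV-NEU, highest in replicate 8, and from 2.32 to 56 in 2208, highest in replicate 5 and lowest in replicates 9 to 11. Without 2208 replicates 9 to 12 the hypoxia list's median ratio was 0.90 with 0 called, and within runs it was 0.92 with 3 of 20 called. Among pericyte genes, Kcnj8 and Abcc9, the subunits of a vascular potassium channel, were lowest in MMTV-NEU in replicate 2 (5.36 and 16.1 CPM) and in 2208 in replicate 10 (4.05 and 11.7 CPM).

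Proliferation and interferon genes varied in both models without a called difference. Mki67, a marker of cycling cells, was at 232 to 666 CPM in MMTV-NEU and 197 to 464 in 2208 (0.80 ± 0.41, adjusted p = 0.17), and the mitosis list had a median ratio of 0.44 ± 0.55 with 0 of 20 called. Of 22 interferon response genes 20 had the larger SD in MMTV-NEU (60.8% over all genes) and 0 passed, with a median of 0.56 ± 0.45. Over all lists the members that passed had a larger spread in MMTV-NEU, as did 464 of the 486 genes called in all. The remaining lists with any called gene had 1 or 2 each, beside 4.34% over all genes: heat shock (Hspb1 and Hspb8, 2 of 16 tested), TGF-beta and BMP (Tgfb1 and Tgfbi, 2 of 12), endothelial (Eng, 1 of 14), Wnt (Wnt7b, 1 of 9), p53 targets (Sesn1, 1 of 17), glucocorticoid response (Fkbp5, 1 of 12), RAS-ERK feedback (Phlda1, 1 of 16), fatty acid synthesis (Srebf1, 1 of 16), unfolded protein response (Psat1, 1 of 17) and squamous differentiation (Tgm1, 1 of 3). A single call among 14 to 17 genes is near the share over all genes. Luminal epithelial and junction genes had median ratios of 0.02 ± 0.40 and 0.04 ± 0.21, with 0 of 13 and 0 of 19 called.

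Within runs of library numbers, where each library was compared only with its own run, the SD fell in both models, to a median of 0.225 in MMTV-NEU and 0.176 in 2208, and the median log2 SD ratio was 0.42. There 606 genes had a larger spread in MMTV-NEU and 32 in 2208, of which 169 and 2 were among the 464 and the 22. Of the 33 called genes named by rule, 12 kept their call within runs. Fam83a, Rabif, Arnt2, Trpv4, Slc6a2, Nkd2, C3, Ltf, Cd14 and Spp1 were among these, while Hp, Dcn, Lum, Col1a1, Cxcl14, Il33 and Junb were not. This fit uses 18 libraries, since 2208 replicates 1 and 12 are alone in their runs.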

How the data were processed

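The series deposited 2 tables over 82 libraries and 47480 gene symbols. The first holds the authors' estimated counts per gene as deposited, not normalized, of which 85.5% are whole numbers. The second, as deposited, holds a signal equal to those counts scaled within each library to a common upper quartile of the non-zero counts, found by comparing both tables, and was used only as an alternative. STAR, SAMtools, Picard, Salmon and the mm10 build are named per the submitters' processing notes, without versions or roles. Per the labels' protocols, RNA was taken from frozen tumours with RNeasy columns and made into TruSeq mRNA libraries. No deposited column was left without a sample.

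Counts were rounded and scaled by TMM (edgeR 4.0.16), and log2 CPM used a prior count of 2. In each model the absolute deviation of each library from the mean, times the square root of n/(n - 1), was compared between models with limma 3.58.1 (trend and robust moderation, two-sided, Benjamini-Hochberg adjustment over 10694 genes, mean CPM of 5 or more in both models). In simulated data with known spreads, 0.091% of unchanged genes were called and 3.59% of calls were unchanged genes. The simulation drew independent normal deviations for each gene and library, without runs or shared library effects. Its rates therefore need not hold for these data. The value per library was tested by exact permutation of 125970 assignments. Runs begin where library numbers jump by more than 10. Gene symbols were matched to GENCODE M21 on mm10 for position, overlap and length.

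The models, the 49 gene lists and the tests were chosen with earlier results of these data known, so counts over lists are descriptions and carry no test. Genes named by rule are, in each direction, the 12 called genes with the largest ratio that keep its sign with each library left out, the 10 genes of largest SD in each model, the 5 steadiest, from each list described the 2 genes of highest mean CPM and the 2 of largest SD, and Erbb2, Met, Csn3, Muc1 and Mki67 (Cftr and Esr1 were in the rule but not tested). Lists described by rule are the 6 with the highest and the 6 with the lowest median ratio among those with 5 or more genes tested, and any with 50% or more of its genes called. Other lists, among them the acute phase, matrix protease, adipocyte and prolactin lists, are given outside this rule. Predicted genes, clone names, pseudogenes and receptor segments were skipped where their names show them. Alternatives changed the centre, the scaling (DESeq2 1.42.0 size factors among them), the prior count, the level filter, the test and the libraries used. The removal of runs, of 2208 replicates 9 to 12 and of the length trend was chosen after seeing the data.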

Additional observations from a re-analysis of the deposited data

Results flagged for a closer look

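By Dixon's 95% limit for groups of 8, a highest or lowest library far from its neighbour was looked for among the MMTV-NEU values of the 91 genes named by rule and of the gene lists described. Chance gives about 1 such group in 20, and 3 of the 91 genes were found. Gaps and ranges were taken on log2 CPM, although levels are printed in CPM. Arnt2 was at 58.85 CPM in MMTV-NEU replicate 8, with the next library at 5.722 CPM (a gap of 0.561 of the log2 range). Nos1ap was at 31.31 CPM in MMTV-NEU replicate 5, with the next at 23.1 CPM (0.533). Abcc9 was at 16.1 CPM in MMTV-NEU replicate 2, with the next lowest at 31.07 CPM (0.611), and the mean log2 CPM of the pericyte genes was 4.388 in the same library, with the next lowest at 5.129 (0.644).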

How the results depend on the processing

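The median ratio, the typical deviation per library and the counts of called genes kept their direction under other scalings. These were library totals, DESeq2 size factors, the authors' normalized values, variance stabilised values and thinned counts. The same held for prior counts of 0.5 and 5, and a minimum of 1 CPM. In these settings the counts of all calls and of those larger in MMTV-NEU stayed within 1.5 times. The genes called changed more under other scalings. Of the 486, 353 were shared with library totals, 343 with the authors' normalized values and 362 with thinned counts. Of the 22 larger in 2208, 12, 11 and 12 were shared. DESeq2 size factors shared 387 and 14, and a prior count of 0.5 shared 479 and 22. Deviations from the median and squared deviations gave 0 calls in either direction. The fit on squared deviations also recovered 0% of the simulated 4-fold genes, so its 0 calls cannot decide. The counts of genes called in all, larger in MMTV-NEU and larger in 2208 were 244, 237 and 7 at a minimum of 20 CPM, 1859, 1647 and 212 with no minimum (typical deviation difference 0.0565, exact permutation p = 0.0255), 1033, 920 and 113 with all 82 libraries in the fit, 275, 272 and 3 without the 3 shallowest libraries (MMTV-NEU replicates 6 and 7, 2208 replicate 5), and 162, 157 and 5 for genes of like level. The F test gave 40 genes larger in 2208. Within runs the median log2 SD ratio was 0.42. With each library left out in turn, all calls ranged from 256 (without 2208 replicate 11) to 662 (without 2208 replicate 12), those larger in MMTV-NEU from 251 to 637 and those larger in 2208 from 5 to 37. Without 2208 replicate 10 they were 303, 298 and 5, and those larger in 2208 were 11 without MMTV-NEU replicate 4, 7 without replicate 6 and 37 without 2208 replicate 6 or 8. Leaving out MMTV-NEU run 1 gave 719, 709 and 10, run 3 gave 211, 208 and 3 with a median of -0.13, 2208 run 2 gave 64, 54 and 10, run 3 gave 293, 233 and 60, and run 4 gave 33, 32 and 1. Without 2208 replicates 9 to 12 there were 8 genes larger in 2208, the median was 0.60 and the typical deviation difference 0.0755. Reversed in sign were Kcnj8 (1.60) and Il33 (-0.69) within runs, Il33 (-0.36) and Lum (-0.28) without MMTV-NEU run 2, and Nos1ap (1.30) and Snrpd2 (1.93) without 2208 replicates 9 to 12. The cause of these shifts was not tested, beyond the smaller number of libraries or genes that some settings use. No paired analysis was possible because the labels give no replicate numbers, and numbers in accession order pair nothing. Counting error was a median of 1.68% and 1.58% of a gene's variance. Whether depth or the number of libraries limits the test more was not tested.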

Other observations

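Muc1, a membrane mucin of luminal epithelium, ranged from 14.3 to 55.1 CPM in MMTV-NEU, with a median of 26.8, and from 157 to 521 CPM in 2208, with a median of 220. Its log2 SD ratio of 0.30 ± 0.36 did not pass in limma's test (adjusted p = 0.79). Slc39a14, a zinc and iron transporter, was at 319.5 CPM in MMTV-NEU replicate 3, which also had the highest Ltf, Spp1 and Cd14, and at 57.52 to 155.4 CPM in the other 7, against 25.65 to 76.18 CPM in 2208 (0.65 ± 0.74, adjusted p = 0.552). Snrpd2, a core spliceosome protein, was at 60.92 to 76.71 CPM in MMTV-NEU replicates 1 to 3 and 29.04 to 36.12 in replicates 4 to 8, and in 2208 at 166.1 to 256.8 CPM in replicates 10 to 12 and 78.26 to 107.1 in the other 9. In 2208 replicate 9 was in the low range although it shares a run with replicates 10 and 11. The ratio of Snrpd2 was -0.08 ± 0.48 (adjusted p = 0.915).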
